A study of Mus musculus with 6 samples.

Results

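The neurexins, neuroligins and leucine-rich repeat transmembrane neuronal proteins (LRRTMs) are adhesion proteins that span the synapse. Here 9 genes of these families were followed by their symbol in the GENCODE M21 annotation of the mouse genome (GRCm38): the neurexins Nrxn2 and Nrxn3, the neuroligins Nlgn1, Nlgn2 and Nlgn3, and Lrrtm1, Lrrtm2, Lrrtm3 and Lrrtm4. They were 9 of 35523 genes with at least 1 transcript in the data, and they were chosen by family and not by their values. All 9 passed the filter on low counts, among 17096 genes tested, and together they had 65 annotated transcripts, which held between 0.134% and 0.146% of the counts of a mouse.

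RNA-Seq was performed on the whole forebrain of 3 Slc13a4+/- mice (labelled Nas2Del Het, here Het_1024, Het_1025 and Het_1027) and 3 wild-type mice (WT_1016, WT_1018 and WT_1026) at postnatal day 20, all on a C57BL/6 background. Slc13a4 encodes a sulfate transporter of the choroid plexus and pia mater. The deletion of 1 allele was inherited through the father, was present in every cell and was not limited to a cell type, and wild-type littermates served as controls. The question put to these genes was whether their RNA, the division between long and short neurexin forms, or the use of their optional exons differed when 1 Slc13a4 allele was missing.

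Neurexins sit in the presynaptic membrane, and neuroligins and LRRTMs sit opposite them in the postsynaptic membrane. Each neurexin gene makes a long alpha form from an upstream promoter and a short beta form from a promoter inside the gene, and both forms can carry the exon of splice site 4. LRRTM1 and LRRTM2 bind neurexins that lack this exon, cerebellins bind those that contain it, and neuroligins bind both, with preferences set by their own inserts. Neurexins also carry chains of heparan sulfate, a sulfated sugar polymer through which neuroligins and LRRTMs can be bound. In the forebrain, neuroligin 1 is best known at excitatory synapses, neuroligin 2 at inhibitory synapses, neuroligin 3 at both, and the LRRTMs at excitatory synapses.

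The optional exons given here are short. The 90-base exon of splice site 4 is given for Nrxn3, since its inclusion was measured below. It lies at chr12:90199147-90199236 on the plus strand (GRCm38).
Nrxn3 splice site 4: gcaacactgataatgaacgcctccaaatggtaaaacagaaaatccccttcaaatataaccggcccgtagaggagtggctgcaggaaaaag

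In the neuroligins the insert of site A lies in the extracellular domain. It is a 60-base exon at chr3:25920178-25920237 on the minus strand in Nlgn1 and a 51-base exon at chr11:69830563-69830613 on the minus strand in Nlgn2. Nlgn3 has a pair of 60-base exons there, of which the second, at chrX:101307075-101307134 on the plus strand, shared 43 of 60 bases with the Nlgn1 exon. The first, at chrX:101303072-101303131, shared 16 of 60. Capitals mark the bases that Nlgn1 and the second Nlgn3 exon have in common, and the Nlgn2 exon, of another length, was not aligned and is in lower case.
Nlgn1 site A: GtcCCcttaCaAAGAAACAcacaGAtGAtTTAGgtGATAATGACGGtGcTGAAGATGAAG
Nlgn3 second exon of site A: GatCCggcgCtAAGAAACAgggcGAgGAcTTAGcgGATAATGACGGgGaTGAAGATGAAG
Nlgn2 site A: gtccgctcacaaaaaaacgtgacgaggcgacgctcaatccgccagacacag

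The total of the expected counts lay between 60340337 and 80410582 in a mouse. As a check of the labels, Slc13a4 stood at 5.60, 6.57 and 5.41 CPM (counts scaled by library size after TMM normalisation) in the Slc13a4+/- mice Het_1024, Het_1025 and Het_1027 and at 10.4, 9.36 and 8.23 CPM in the wild-type mice WT_1016, WT_1018 and WT_1026, the order in which values are given throughout. The groups did not overlap and the log2 difference was -0.67 (SE 0.107). With genes called at an adjusted p under 0.1, Slc13a4 was not called by edgeR's quasi-likelihood test over all genes (adjusted p = 0.499) and was called by DESeq2 with transcript lengths as offsets (adjusted p = 0.0024). Markers of excitatory forebrain neurons, interneurons and striatal neurons were present in every mouse, and the 7 hindbrain and cerebellar markers summed to between 1.19 and 5.49 TPM (a level scaled by transcript length), with Hoxa2 at 0 throughout. The Y-linked gene Ddx3y had 7014 counts in wild-type mouse WT_1016 and at most 2 in any other mouse, and the labels give no sex. By this gene sex was not balanced between the groups, as no Slc13a4+/- mouse had more than 1 count of it. The part of sex in the differences below was not tested.

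Levels were compared between genes in TPM, since counts also grow with the length of a transcript. Nrxn2 had the highest level of the 9 genes, at 150.5 ± 13.1 TPM (SD, n = 6 mice), and Lrrtm4 the lowest, at 43.1 ± 3.28 TPM. Between them came Nrxn3 (85.3 ± 8.63), Nlgn3 (81.8 ± 4.28), Nlgn1 (76.8 ± 4.37), Lrrtm3 (72.2 ± 2.53), Lrrtm1 (71.9 ± 2.91), Lrrtm2 (62.8 ± 0.957) and Nlgn2 (58.4 ± 4.78). Of the 8 pairs of neighbours in this order, 3 kept their order in all 6 mice: Nrxn2 above Nrxn3 by 65.2 ± 9.03 TPM, Lrrtm1 above Lrrtm2 by 9.13 ± 2.91 TPM, and Nlgn2 above Lrrtm4 by 15.3 ± 6.01 TPM. Each of these gave an exact two-sided paired permutation p of 0.0313, the smallest that 6 mice allow (0.0833 adjusted over the 8 pairs). In the other 5 pairs at least 1 mouse had the opposite order, and the exact p lay between 0.0625 and 1. Lrrtm3 was above Lrrtm1 in only 1 of the 6 mice, Het_1024 (76.4 against 68.9 TPM), and without that mouse their order turned. By the exact test Nrxn3 and its neighbour Nlgn3 were not told apart, nor were Nlgn3 and Nlgn1. The same held for Lrrtm3 and Lrrtm1, which differed by 0.293 ± 3.73 TPM. Genes further apart in the order were not tested against each other.

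Part of this order depended on which transcripts were summed. Lrrtm3-202, a 545-base transcript annotated as non-coding, held 28.9% of the Lrrtm3 TPM but 4.82% of its counts. With protein-coding transcripts alone, Lrrtm3 moved from the fifth to the last place, at 35.1 ± 1.004 TPM, and Nrxn3 from the second to the fifth, at 59.4 ± 4.003 TPM. Nrxn2 stayed first, at 136.8 ± 7.92 TPM. Nlgn3 then lay above Nlgn1 in all 6 mice, by 10.7 ± 5.79 TPM (exact two-sided paired permutation p = 0.0313, 0.0625 adjusted over the 8 pairs). A short transcript gains TPM relative to its counts in the same way in Nlgn3, where the incomplete 1852-base Nlgn3-203 held 42.5% of the TPM and 13.4% of the counts.

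Summed per family, the neurexins reached 239.4 ± 6.55 TPM in Slc13a4+/- and 232.2 ± 30.8 TPM in wild-type mice, the neuroligins 219.8 ± 2.94 and 214.1 ± 15.1 TPM, and the LRRTMs 250.8 ± 3.27 and 249.2 ± 3.37 TPM (SD, n = 3 each). Nrxn2 made up 63.8 ± 1.65% of the neurexin TPM over the 6 mice. The neuroligin TPM divided into 35.4 ± 1.84% Nlgn1, 26.9 ± 1.09% Nlgn2 and 37.7 ± 0.955% Nlgn3. Among the LRRTMs, Lrrtm4 had the smallest share, 17.2 ± 1.30%, and the 3 others had between 25.1% and 28.9% on average.

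**Figure D1:**
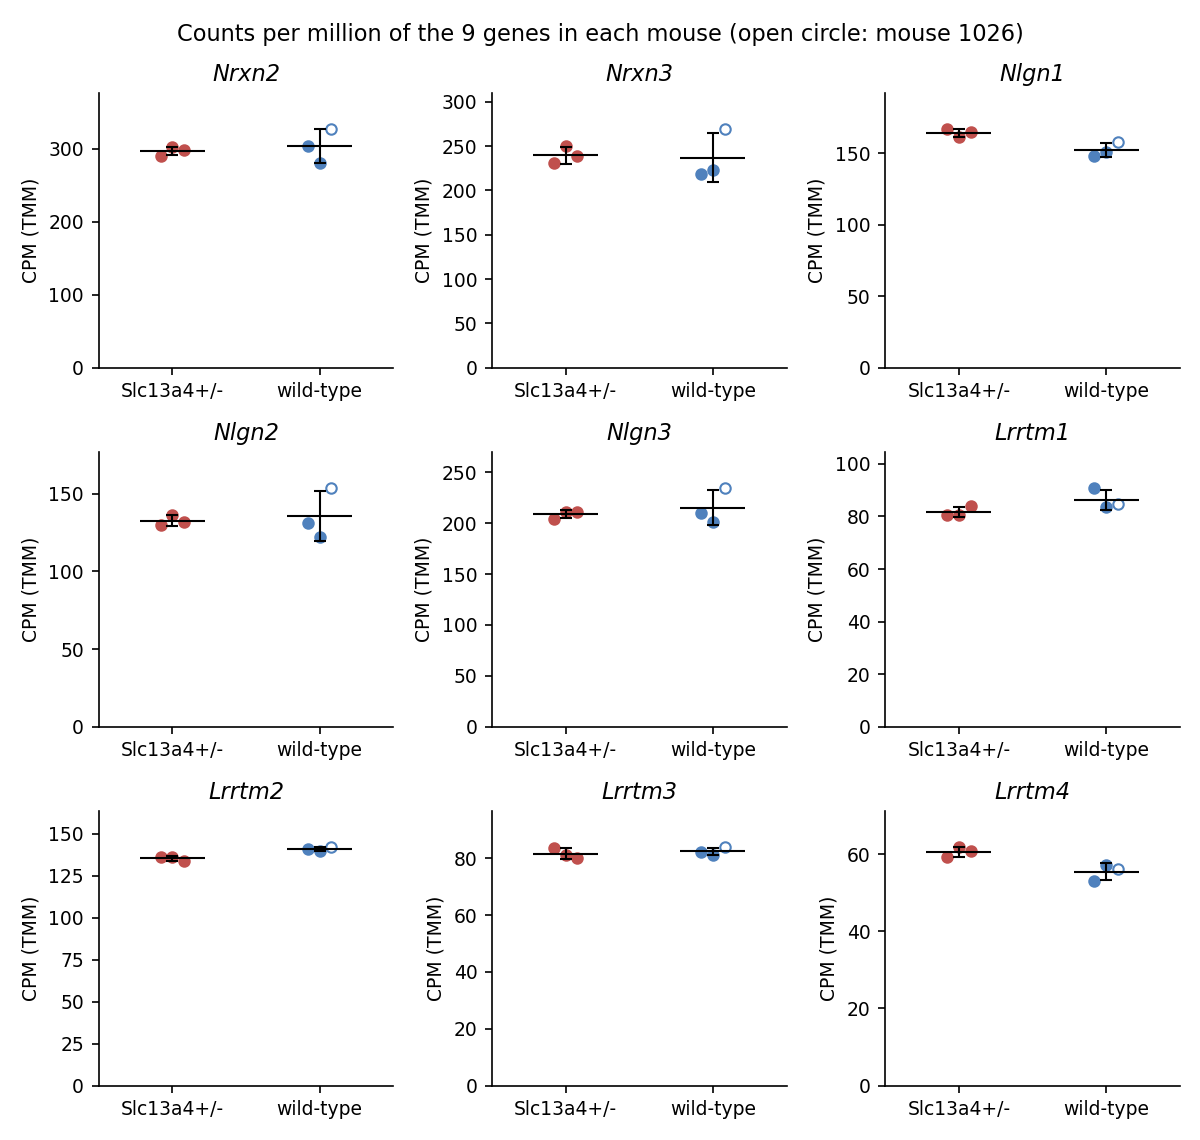
CPM after TMM normalisation (vertical axes, from 0) of the 9 genes in each of the 3 Slc13a4+/- mice (red) and the 3 wild-type mice (blue, mouse WT_1026 as an open circle). Horizontal lines are group means and error bars SD. The groups are apart in Nlgn1, Lrrtm2 and Lrrtm4 and overlap in the other 6 genes, and the open circle is the highest value in Nrxn2, Nrxn3, Nlgn2 and Nlgn3 and, by 0.586% or less, in Lrrtm2 and Lrrtm3.

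Between the genotypes the 9 genes differed little. Log2 differences (Slc13a4+/- minus wild-type) ranged from -0.08 for Lrrtm1 to 0.13 for Lrrtm4, with 3 genes above 0 (beside 47.8% of all genes tested) and 6 below, and a median of -0.03 beside 0.00 (-0.00451) over all genes tested. None of the 9 was called by edgeR's quasi-likelihood test at an adjusted p under 0.1, a threshold that 0.00585% of all genes tested passed. None was called by DESeq2 with length offsets, where 0.487% of the 17659 genes with an adjusted p passed. At an unadjusted p under 0.05 edgeR gave 2 of the 9, Nlgn1 and Lrrtm4, both higher in Slc13a4+/- mice, beside 9.15% of all genes (4.98% higher and 4.17% lower). DESeq2 with length offsets gave 1 at that level, Nlgn1, beside 3.86% of its 17659 genes higher. The CPM values of the groups did not overlap in 3 of the 9 genes, 2 higher and 1 lower, beside 15% of all genes tested (7.26% higher and 7.7% lower). As forebrain was measured as a whole, fewer cells that make an RNA and less of it per cell cannot be told apart.

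**Figure D2:**
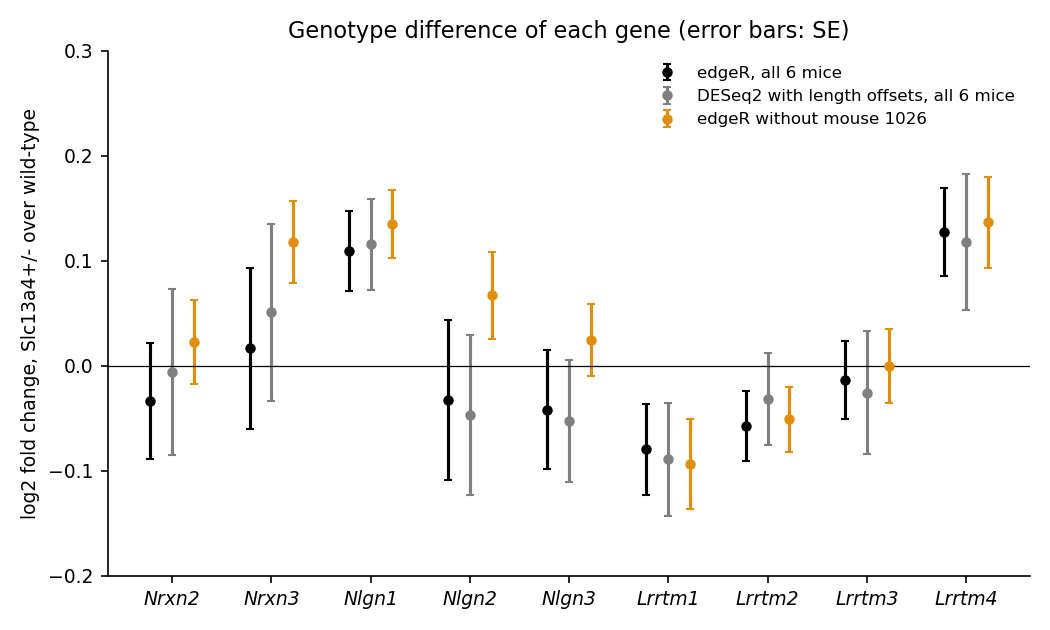
Log2 fold change (Slc13a4+/- over wild-type, vertical axis) of the 9 genes, with SE bars, from edgeR on all 6 mice (black), DESeq2 with length offsets on all 6 mice (grey) and edgeR without mouse WT_1026 (orange). Nlgn1 and Lrrtm4 lie above 0 and Lrrtm1 and Lrrtm2 below 0 in all 3 fits, while Nrxn2, Nlgn2 and Nlgn3 change sign without mouse WT_1026.

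Nrxn2 (ENSMUSG00000033768, chr19:6418731-6544169, plus strand) stood at 290.4, 302.1 and 298.5 CPM in the Slc13a4+/- mice and at 304.2, 280.8 and 327.0 CPM in the wild-type mice. Its groups overlapped, and the lowest and the highest value were both wild-type. The log2 difference was -0.03 (SE 0.056, edgeR adjusted p = 0.875).

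Nrxn3 (ENSMUSG00000066392, chr12:88722876-90334935, plus strand) stood at 230.8, 249.6 and 238.8 CPM in the Slc13a4+/- mice and at 218.4, 223.5 and 269.0 CPM in the wild-type mice. Mouse WT_1026 was above every other mouse and the other wild-type mice were below every Slc13a4+/- mouse. The log2 difference was 0.02 (SE 0.077, edgeR adjusted p = 0.964). Without mouse WT_1026 the edgeR difference was 0.12 (SE 0.039, adjusted p = 0.181) and the DESeq2 difference to 0.17 (SE 0.057, adjusted p = 0.0765), which DESeq2 then called.

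The alpha and beta forms of each neurexin were separated by the start of their coding sequence. In Nrxn2, 6 alpha transcripts and 2 beta transcripts were annotated, and the first beta transcript, Nrxn2-202, began at position 6497828 of chromosome 19. In Nrxn3 there were 3 alpha and 2 beta transcripts, and the beta start lay at position 89812483 of chromosome 12. The alpha forms reached 86.1 ± 4.23 TPM in Nrxn2 and 53.6 ± 3.95 TPM in Nrxn3 (SD, n = 6). The beta forms reached 35.3 ± 2.93 and 5.83 ± 0.211 TPM. A further 19.1% of the Nrxn2 TPM and 30.1% of the Nrxn3 TPM lay on transcripts that were neither. In Nrxn2 these were led by Nrxn2-209, an incomplete coding transcript of 648 bases with 10.2% of the TPM, and the rest were non-coding or had retained introns, as in Nrxn3, which also had transcripts marked for nonsense-mediated decay.

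Beta forms took a larger part of Nrxn2 than of Nrxn3. As a share of alpha plus beta TPM they made up 29.1 ± 1.13% in Nrxn2 and 9.83 ± 0.675% in Nrxn3, a difference of 19.2 ± 1.25 percentage points that was present in 6 of 6 mice (range 16.7 to 20.0, exact two-sided paired permutation p = 0.0313, the smallest possible). Counted in reads, where the longer alpha transcripts weigh more, the shares were 19.5% and 4.29%. Assigning also the incomplete coding transcripts by their 5′ end gave 25.8% and 9.83%.

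The share of beta forms did not separate the genotypes. In Nrxn2 it was 29.0%, 29.4% and 29.3% in the Slc13a4+/- mice and 30.4%, 27.0% and 29.2% in the wild-type mice. In Nrxn3 it was 9.33%, 9.47% and 9.82% against 10.96%, 10.3% and 9.17%. Both pairs of groups overlapped. The differences were 0.380 percentage points in Nrxn2 (29.2 ± 0.245 against 28.9 ± 1.74, exact two-sided permutation p = 0.8) and -0.589 in Nrxn3 (9.54 ± 0.25 against 10.1 ± 0.904, exact permutation p = 0.4), each with an adjusted p of 0.8 over the 2 genes. With 3 mice in each group this test cannot give a p below 0.1. The Nrxn3 beta level itself was 5.73 ± 0.237 TPM in Slc13a4+/- and 5.92 ± 0.169 TPM in wild-type mice, and mouse WT_1026, the highest in Nrxn3 alpha at 59.7 TPM, had 6.03 TPM of beta.

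**Figure D3:**
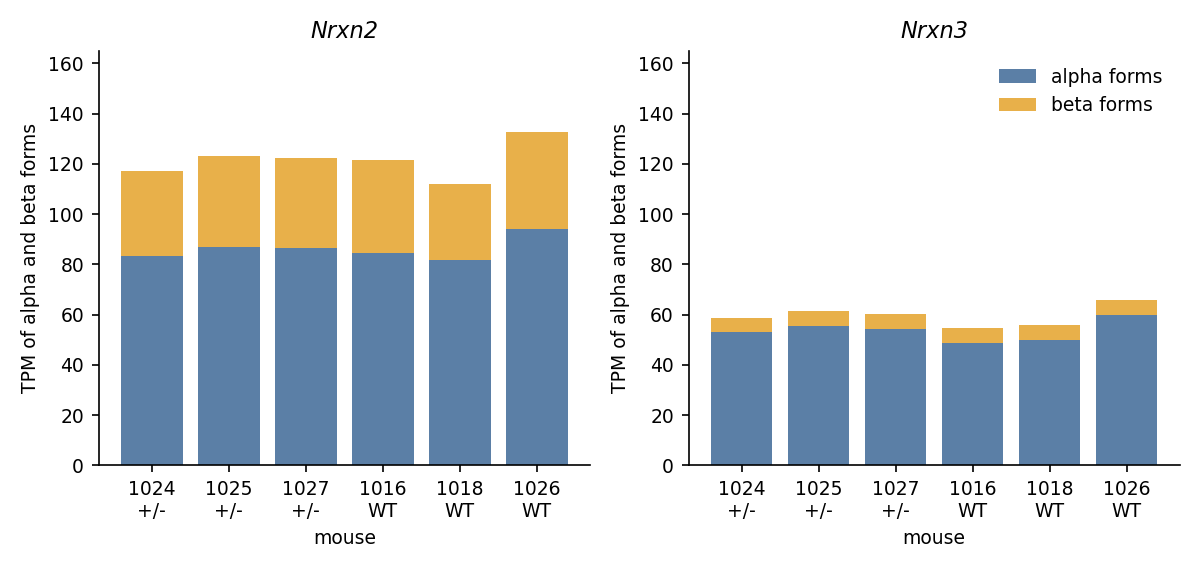
TPM of alpha forms (blue) and beta forms (yellow), stacked, of Nrxn2 (left) and Nrxn3 (right) in each Slc13a4+/- (+/-) and wild-type (WT) mouse. The beta part is 29.1% of the bar on average in Nrxn2 and 9.83% in Nrxn3, and the tallest bar of both genes is wild-type mouse WT_1026.

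In Nrxn2, transcripts with the splice site 4 exon outweighed those without it, although the annotation divides the forms unevenly. In Nrxn2 the exon was in 65.7%, 67.3% and 66.8% of the TPM of Slc13a4+/- mice and in 65.8%, 65.2% and 64.5% of the TPM of wild-type mice. The groups overlapped (66.6 ± 0.825% against 65.15 ± 0.621%, exact two-sided permutation p = 0.2). Nearly all Nrxn2 TPM that lacked the exon lay on 1 alpha transcript, Nrxn2-204 (40.0 ± 0.169 TPM in Slc13a4+/- and 42.3 ± 4.03 TPM in wild-type mice). Among the Nrxn2 beta transcripts 99.03 ± 0.220% of the TPM included it (n = 6).

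In Nrxn3 the exon was in 95.8 ± 1.21% of the TPM of Slc13a4+/- and 94.6 ± 0.746% of that of wild-type mice. The transcripts without it held 4.73%, less than the 5% set for a test. Only the beta transcript Nrxn3-203 could be counted as lacking it, as no protein-coding alpha transcript of Nrxn3 without the exon is annotated. The high Nrxn3 share was therefore set largely by the annotation and cannot show which state prevails. Within the beta forms of Nrxn3, inclusion was 51.6 ± 9.87% over the 6 mice, on a summed level of 5.83 TPM. It was 41.8%, 68.1% and 58.4% in the Slc13a4+/- mice and 44.5%, 47.2% and 49.9% in the wild-type mice.

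Other optional exons of the neurexins were included to different degrees. In Nrxn2, a 30-base exon was in 84.9 ± 1.23% of the TPM over the 6 mice, a 24-base exon in 51.6 ± 2.75%, a 27-base exon in 52.3 ± 1.46%, and a 45-base version of the 24-base exon in 10.3 ± 1.47%. The 27-base exon of Nrxn3 was in 10.99 ± 1.29%. By counts in place of TPM the averages were 98.5% for the 30-base, 59.8% for the 24-base, 54.8% for the 27-base, 55.5% for the 72-base and 15.1% for the 45-base exon of Nrxn2, and 6.58% for the exon of Nrxn3. The 72-base exon of Nrxn2 (chr19:6450528-6450599) was the 1 exon of 11 tested whose groups did not overlap, at 59.4%, 60.8% and 60.9% in Slc13a4+/- and 59.3%, 58.9% and 57.5% in wild-type mice. The gap between the groups was narrow, and the difference of 1.80 percentage points had an exact two-sided permutation p of 0.1, the smallest possible (0.55 adjusted over the 11 exons). The 72-base, 27-base and 90-base exons of Nrxn2 were all absent from Nrxn2-204, so their 3 values largely repeat the level of that transcript.

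**Figure D4:**
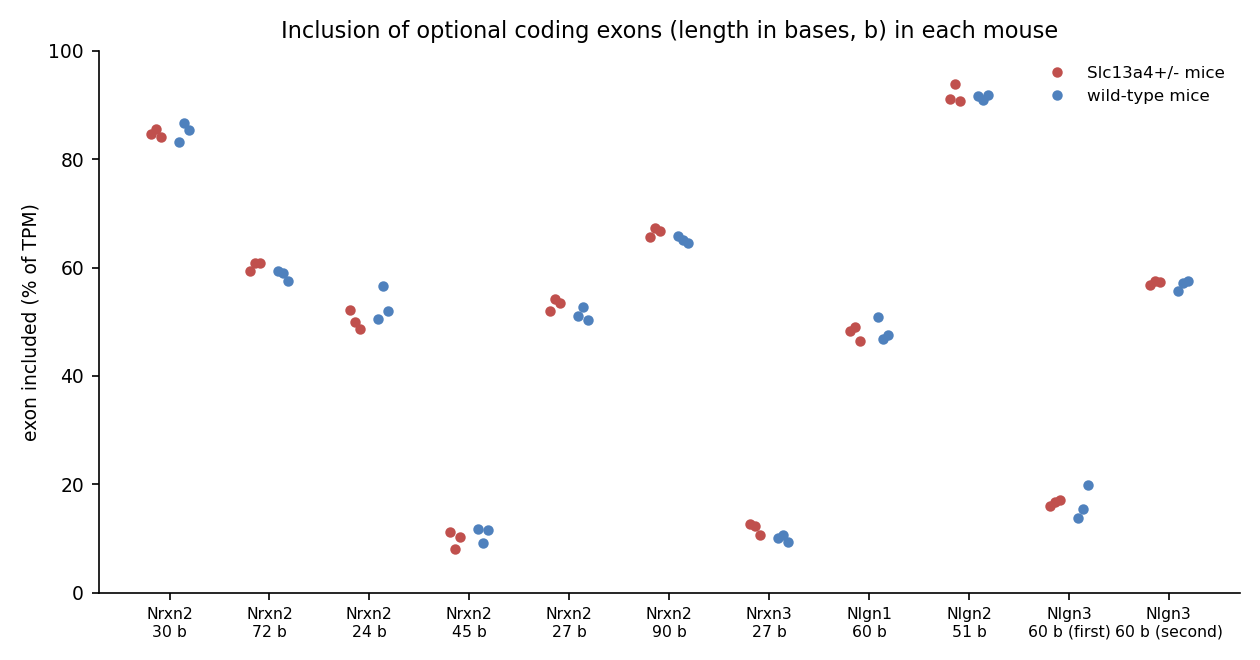
Share of TPM on transcripts that include each optional coding exon (vertical axis, %) in every Slc13a4+/- mouse (red) and wild-type mouse (blue), for the 11 exons of Nrxn2, Nrxn3, Nlgn1, Nlgn2 and Nlgn3 that were tested, named by gene and length in bases. Inclusion runs from about 10.3% (Nrxn2, 45 bases) to 91.7% (Nlgn2, 51 bases), and the colours lie apart only at the Nrxn2 72-base exon.

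Nlgn1 (ENSMUSG00000063887, chr3:25426215-26332460, minus strand), the excitatory neuroligin, stood at 166.9, 161.5 and 164.9 CPM in the Slc13a4+/- mice and at 148.4, 151.2 and 157.8 CPM in the wild-type mice. Every Slc13a4+/- mouse was above every wild-type mouse. The log2 difference of 0.11 (SE 0.038) had an unadjusted p of 0.0202 and an adjusted p of 0.506 in edgeR, and an adjusted p of 0.416 in DESeq2. Without mouse WT_1016, which alone had Ddx3y, it was 0.10 (SE 0.040, edgeR unadjusted p = 0.0449, adjusted p = 0.814). Without mouse WT_1026 it was 0.14 (SE 0.033, edgeR adjusted p = 0.112), and DESeq2 then called it, at 0.13 (SE 0.041, adjusted p = 0.0464). With these 5 mice edgeR called 1.29% of the 17337 genes tested and none of the 9. DESeq2 called 2 of the 9, Nlgn1 and Nrxn3. Beside them it called 6.54% of the 11013 genes to which it gave an adjusted p, out of 28397 fitted.

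Nlgn2 (ENSMUSG00000051790, chr11:69823122-69837784, minus strand), the neuroligin of inhibitory synapses, stood at 129.7, 136.3 and 132.0 CPM in the Slc13a4+/- mice and at 131.4, 121.9 and 153.6 CPM in the wild-type mice. Wild-type mice held both extremes, so the groups overlapped (log2 difference -0.03, SE 0.076, edgeR adjusted p = 0.921). Without mouse WT_1026 the difference was 0.07 (SE 0.041, edgeR adjusted p = 0.422).

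Nlgn3 (ENSMUSG00000031302, chrX:101299168-101325963, plus strand), which is X-linked, stood at 204.2, 211.2 and 211.4 CPM in the Slc13a4+/- mice and at 209.5, 201.3 and 234.3 CPM in the wild-type mice. The groups overlapped (log2 difference -0.04, SE 0.057, edgeR adjusted p = 0.840), and mouse WT_1016, which alone had Ddx3y, lay inside the range of the others. Without mouse WT_1026 the difference was 0.02 (SE 0.034).

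In the division of the neuroligin TPM, the shares of Nlgn1 and Nlgn3 were apart between the groups. Nlgn1 took 37.6%, 36.1% and 36.4% of the neuroligin TPM in the Slc13a4+/- mice and 34.3%, 35.8% and 32.3% in the wild-type mice. Nlgn3 took 36.4%, 37.1% and 37.1% against 38.9%, 37.95% and 38.6%. Neither pair of groups overlapped. Both had an exact two-sided permutation p of 0.1, the smallest possible (0.3 adjusted over the 9 shares of the 3 families). The 2 shares come from 1 sum, so they are not independent. A share also depends on the other genes of the sum. Mouse WT_1026 had the lowest Nlgn1 share but, at 74.7 TPM, the highest Nlgn1 level of the wild-type mice. Its Nlgn2 and Nlgn3 levels, 67.1 and 89.3 TPM, were the highest of all mice.

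Inclusion of the site A inserts was measured in each of the 3 neuroligins and was not tested between them. In Nlgn1 the 60-base exon was in 47.9 ± 1.32% of the TPM of Slc13a4+/- mice and 48.5 ± 2.16% of that of wild-type mice (exact two-sided permutation p = 0.8). In Nlgn2 the 51-base exon was in 91.9 ± 1.66% and 91.5 ± 0.482% (exact p = 0.9). In Nlgn3 the first 60-base exon was in 16.6 ± 0.557% and 16.4 ± 3.10% (exact p = 0.9) and the second in 57.2 ± 0.436% and 56.8 ± 1.02% (exact p = 0.6). All 4 pairs of groups overlapped. By counts in place of TPM the averages were 64.9% for Nlgn1, 98.9% for Nlgn2, and 16.8% and 86.6% for the Nlgn3 exons. The value of the second Nlgn3 exon rested on how much was assigned to Nlgn3-203, the only transcript counted without it. In the same way, the Nlgn2 value rested on the 784-base Nlgn2-203.

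Lrrtm1 (ENSMUSG00000060780, chr6:77242689-77257791, plus strand) stood at 80.7, 80.6 and 83.9 CPM in the Slc13a4+/- mice and at 90.7, 83.8 and 84.6 CPM in the wild-type mice. One value crossed, mouse Het_1027 lying just above mouse WT_1018. The log2 difference was -0.08 (SE 0.043, edgeR adjusted p = 0.613), and it stayed below 0 in all 21 alternative fits. Without mouse WT_1016, which alone had Ddx3y, it was -0.04 (SE 0.041) in edgeR. Of the LRRTM TPM, Lrrtm1 had 28.1 ± 0.620% in Slc13a4+/- and 29.4 ± 0.863% in wild-type mice, groups that did not overlap (exact two-sided permutation p = 0.1, adjusted 0.3).

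Lrrtm2 (ENSMUSG00000071862, chr18:35209003-35215024, minus strand) stood at 136.4, 136.1 and 133.8 CPM in the Slc13a4+/- mice and at 141.2, 139.5 and 142.0 CPM in the wild-type mice. Every Slc13a4+/- mouse was below every wild-type mouse, by a small step (log2 difference -0.06, SE 0.033, edgeR unadjusted p = 0.123, adjusted p = 0.631). In TPM the groups overlapped, at 62.7 ± 0.669 against 62.8 ± 1.36. The main transcript, Lrrtm2-201, was lower in the Slc13a4+/- mice in both units, at 45.2, 45.0 and 44.7 TPM against 46.9, 46.6 and 47.5 TPM (log2 difference in counts -0.12, SE 0.035, edgeR unadjusted p = 0.0135, adjusted p = 0.665 over all transcripts).

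Lrrtm3 (ENSMUSG00000042846, chr10:63928472-64090277, minus strand) stood at 83.7, 80.9 and 80.0 CPM in the Slc13a4+/- mice and at 82.1, 81.1 and 83.8 CPM in the wild-type mice. Its groups overlapped and its coefficient of variation over the 6 mice, 1.91%, was the lowest of the 9 genes (median of the 9, 5.18%, and of all genes tested, 5.90%). The log2 difference was -0.01 (SE 0.037, edgeR adjusted p = 0.932).

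Lrrtm4 (ENSMUSG00000052581, chr6:80018877-80810143, plus strand), known to bind neurexins and glypicans through heparan sulfate, stood at 59.2, 61.8 and 60.8 CPM in the Slc13a4+/- mice and at 53.1, 57.2 and 56.1 CPM in the wild-type mice. Every Slc13a4+/- mouse was above every wild-type mouse. The log2 difference of 0.13 (SE 0.042) had an unadjusted p of 0.0146 and an adjusted p of 0.499 in edgeR, and an adjusted p of 0.775 in DESeq2 with length offsets. Without mouse WT_1016, which alone had Ddx3y, it was 0.10 (SE 0.044, edgeR unadjusted p = 0.0515, adjusted p = 0.814). In TPM the groups overlapped, at 42.5, 45.5 and 47.9 against 38.7, 43.2 and 40.7. Its main transcript, Lrrtm4-208, had 20.3 ± 0.685 and 19.4 ± 0.656 TPM (log2 difference in counts 0.01, SE 0.053). A less abundant one, Lrrtm4-206, had 2.76, 4.97 and 2.60 TPM in the Slc13a4+/- mice and 1.94, 2.04 and 2.21 TPM in the wild-type mice (log2 difference in counts 0.68, SE 0.257, edgeR unadjusted p = 0.0382, adjusted p = 0.665).

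Lrrtm1, Lrrtm2 and Lrrtm3 each lie within an alpha-catenin gene on the opposite strand (Ctnna2, Ctnna1 and Ctnna3). Only Lrrtm2 shares exon sequence with its host, 95 bases, and Ctnna1 had 5328 counts on average. The libraries kept the strand of the RNA, but whether the quantification used it is not stated in the sources read here.

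Of the 65 transcripts of the 9 genes, 56 passed the filter on low counts and none was called by edgeR (the smallest adjusted p was 0.665) or by DESeq2. Beside them, DESeq2 called 0.711% of the 64236 transcripts to which it gave an adjusted p, and edgeR 0 of 54721. At an unadjusted p under 0.05 edgeR gave 3, beside 7.41% of all transcripts: Lrrtm4-206 and Nrxn2-217 higher and Lrrtm2-201 lower in the Slc13a4+/- mice. Lrrtm4-206 and Nrxn2-217 held under 10% of the TPM of their genes and are named after their values were seen. Nrxn2-217 is a 725-base non-coding transcript with 12.3, 31.1 and 15.7 counts in Slc13a4+/- mice and 5.95, 0 and 0 in wild-type mice. The same 3 transcripts were those whose CPM values did not overlap between the groups, beside 16.1% of all transcripts. In 23 transcripts the share of the gene's TPM was at least 10%. The leading ones were Nrxn3-205 (56.1%), Nlgn2-202 (53.6%), Nlgn1-203 (42.9%), Lrrtm1-202 (70.1%), Lrrtm2-201 (73.3%), Nlgn3-203 (42.5%), Lrrtm3-201 (48.6%), Lrrtm4-208 (46.3%) and, in Nrxn2, the alpha transcript Nrxn2-204 (27.4%) followed by the beta transcript Nrxn2-202 (23.3%).

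Mouse WT_1026, a wild-type animal, had the highest CPM of 6 of the 9 genes. In Nlgn2 it exceeded the next mouse by 12.7%, in Nlgn3 by 10.8%, in Nrxn3 by 7.77% and in Nrxn2 by 7.498%, and in Lrrtm2 and Lrrtm3 by 0.586% and 0.113%. The share of all genes tested that were highest in this mouse is not given here. Over all genes, edgeR called 223 without this mouse, beside 1 with all 6 mice. In the same mouse the 7 markers of excitatory forebrain neurons summed to 1256 TPM, beside 1069 to 1198 TPM in the others. The 7 genes of handling and activity summed to 538.7 TPM there, beside 443.8 to 504.8 TPM. Mouse WT_1026 was the highest in 4 of these 7 markers and in 2 of these 7 handling and activity genes. Slc17a7, which held 57.2% of the excitatory sum, was highest in Het_1027 (705.8 TPM, beside 696.6 TPM in WT_1026). The summed TPM of the markers of 4 other cell types was lower in all Slc13a4+/- mice than in all wild-type mice: astrocytes (6 markers, 1607 to 1691 against 1711 to 1760 TPM), oligodendrocyte precursors (5 markers, 275.3 to 291.0 against 293.5 to 319.9 TPM), microglia (6 markers, 252.3 to 258.3 against 261.0 to 284.9 TPM) and choroid plexus epithelium (5 markers, 737.4 to 850.6 against 885.4 to 890.9 TPM). Single markers did not all follow these sums. Of the astrocyte markers, Gfap was lower and Aldh1l1 higher in every Slc13a4+/- mouse (60.2, 59.1 and 58.4 against 54.8, 53.7 and 56.7 TPM), and the other 4 overlapped. Among the precursor markers Olig2 alone was apart, and among the microglial markers 3 of 6 were (Cx3cr1, C1qa and Aif1), all of them lower. In the choroid plexus list Ttr, which held 97.2% of the sum, was lower and the other 4 overlapped. No marker of these lists was at 0 in every mouse. The part of these differences in the values of Nlgn1, Lrrtm2 and Lrrtm4 was not tested, nor was that of the excitatory markers and the handling genes in the values of WT_1026.

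The other genes of the pathway were described by 7 lists of 83 genes, all of which were tested and none of which was called by edgeR or by DESeq2. At an unadjusted p under 0.05 edgeR gave 2 higher and 5 lower in the Slc13a4+/- mice, 8.43% of the 83 beside 9.15% of all genes. The groups did not overlap in 10 of the 83 (12.05%, beside 15% of all genes). Neither share was above that of all genes.

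Among 18 extracellular partners of neurexins (8 above 0 and 10 below, median log2 difference -0.02), the 2 with the smallest p were secreted proteins. Cbln4, a cerebellin that bridges neurexins with the splice site 4 exon to postsynaptic receptors, stood at 16.1, 15.1 and 15.2 CPM in the Slc13a4+/- mice and at 18.5, 19.7 and 17.6 CPM in the wild-type mice. The groups did not overlap, and the log2 difference was -0.26 (SE 0.055, edgeR unadjusted p = 0.00117, adjusted p = 0.499). Without mouse WT_1026 it was -0.30 (SE 0.056) and was called by edgeR (adjusted p = 0.0916) and by DESeq2 (adjusted p = 0.0246). C1ql2, a C1q-like protein, had 8.06 ± 0.172 against 9.34 ± 0.369 CPM (log2 difference -0.21, SE 0.060, edgeR adjusted p = 0.499).

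Inside the presynaptic terminal, the 6 cytoplasmic partners of neurexins had log2 differences between -0.02 and 0.06, with Cask, a scaffold that binds the neurexin tail, at 0.06 (SE 0.046) and Lin7c at 0.02 (SE 0.035). On the postsynaptic side, 7 of 10 partners of neuroligins and LRRTMs were above 0 (median 0.02). Mdga1, which binds neuroligins and blocks their contact with neurexins, had 25.1 ± 0.701 CPM in Slc13a4+/- and 27.5 ± 1.35 CPM in wild-type mice without overlap (log2 difference -0.13, SE 0.046, edgeR unadjusted p = 0.0200, adjusted p = 0.506).

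Of 9 regulators of neurexin splicing, 5 were above 0 (median 0.01). Khdrbs2, which encodes an RNA-binding protein that acts on splice site 4, had 11.1 ± 0.268 against 10.3 ± 0.164 CPM without overlap (log2 difference 0.11, SE 0.053, edgeR adjusted p = 0.586), and its relative Khdrbs3 had a log2 difference of -0.08 (SE 0.046). The 5 proteases that shed neurexins or neuroligins lay between -0.05 and 0.01, with Bace1 at -0.05 (SE 0.037) and Adam10 at -0.01 (SE 0.043).

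Of 26 other adhesion organisers of the synapse, 16 were above 0 (median 0.01). Lrfn2 encodes a postsynaptic leucine-rich repeat protein and had 23.0, 27.3 and 23.0 CPM in the Slc13a4+/- mice and 33.4, 30.6 and 25.7 CPM in the wild-type mice, with mouse WT_1026 the lowest of its group and below mouse Het_1025 (log2 difference -0.29, SE 0.101, edgeR adjusted p = 0.506). Without mouse WT_1026 it was -0.39 (SE 0.078, edgeR adjusted p = 0.0916). Flrt2 had 147.6 ± 5.69 against 134.4 ± 6.31 CPM without overlap (log2 difference 0.13, SE 0.047, edgeR adjusted p = 0.506). The 9 enzymes that build heparan sulfate chains had a median of -0.01, with 4 above 0 and 5 below. Ext1, a polymerase of the chain, was at 63.8 ± 1.154 against 60.2 ± 1.84 CPM without overlap (log2 difference 0.08, SE 0.039, edgeR unadjusted p = 0.0582, adjusted p = 0.563), and Xylt2, which starts the chain, at 0.07 (SE 0.040).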

How the data were processed

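Stranded, rRNA-depleted paired-end libraries were made from the forebrain of each mouse. For each transcript the authors deposited the expected count (estimated, not whole) and the TPM from Salmon v1.2.0 (mapping validation and GC bias correction; no source read here states the transcript set, genome build or strand setting). The deposited TPM values sum to 1000000 in each mouse. Of 117135 transcripts, 115973 matched GENCODE M21 identifiers and were placed in 35523 genes, and the 1162 others (0.620% to 0.645% of counts) were left out. All 65 transcripts of the 9 genes had the M21 length. Exon sequences were read from the M21 transcript sequences.

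Expected counts were summed per gene, rounded and tested with edgeR 4.0.16 in R 4.3.3 (quasi-likelihood test, default filter on low counts, TMM, Benjamini-Hochberg over 17096 genes, threshold 0.1, the threshold of the study). The SE is the log2 difference divided by the root of F. DESeq2 1.42.0 and limma 3.58.1 were alternatives. Transcripts were fitted in the same way, with a normalisation of their own. CPM is after TMM. Shares and orders were tested by exact permutation over mice. An optional exon is an internal coding exon, of a length divisible by 3, that 1 protein-coding transcript includes and another skips between the same neighbours, with at least 5% of the TPM on the smaller class. The genes named were the 9 members, Slc13a4 and, of each pathway list, those called and otherwise the 2 with the smallest p. One of these and 1 exon sequence are not reported here. Alternatives were other normalisations, tests, filters and transcript sets and each mouse left out in turn.

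The 9 genes, the lists and the rules were chosen with earlier results of these data known. On simulated counts with known fold changes, edgeR found 22 of the 67 genes at 1.2-fold, 45 of the 67 at 1.5-fold and 58 of the 66 at 2-fold among 17096 (20 false calls). DESeq2, without length offsets, found 27, 46 and 59 of these genes (43 false calls). For transcripts edgeR found 0, 3 and 13 among 54721 (3 false calls). There DESeq2 found 5, 21 and 25 (270 false calls). The division of reads among transcripts of a gene is an estimate whose error was not measured here. Litter and sex of each mouse are not in the labels.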

Additional observations from a re-analysis of the deposited data

How the results depend on the processing

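Lrrtm1 and Lrrtm2 (below 0) and Nlgn1 and Lrrtm4 (above 0) kept their direction in all 21 alternatives to the edgeR fit. Lrrtm4 ranged from 0.08 to 0.16 on the log2 scale and was called in none. Other tools, normalisations, filters and transcript sets, with all 6 mice, called none of the 9 genes and turned no direction. Leaving out 1 mouse did: with edgeR, Nrxn3 was -0.033, -0.013 and -0.024 without mice WT_1016, Het_1025 and WT_1018 and 0.12 without WT_1026, Nrxn2, Nlgn2 and Nlgn3 were 0.022, 0.067 and 0.025 without WT_1026, and Lrrtm3 was 0.0026 without Het_1027. With DESeq2, leaving out mouse WT_1026 gave Nrxn2 0.095, Nrxn3 0.17, Nlgn1 0.13, Nlgn2 0.054 and Nlgn3 0.0041, leaving out Het_1025 gave Nrxn2 0.00030, Nrxn3 -0.0048 and Lrrtm3 0.0070, and leaving out WT_1016 gave Nrxn3 -0.011. Over these fits 0 to 2 of the 9 genes were called, the 2 by DESeq2 without mouse WT_1026. That mouse also decided counts over all genes: edgeR called 223 and DESeq2 720 genes without it, beside 1 and 86 with it (55 by DESeq2 without length offsets, 147 by edgeR without a filter). Of the 83 pathway genes, 0 were called with all mice by edgeR with its filter or by DESeq2, 2 (Cbln4 and Lrfn2) by edgeR without a filter on the same mice, 4 (Cbln4, Lrfn2, Slitrk1 and Lrrc4c, named after their values were seen) by edgeR without mouse WT_1026 and 11 by DESeq2 without it, and the range over mice left out was 0 to 11. The number of neighbours in the order of levels that kept it in every mouse was 3, and between 3 and 5 with 1 mouse left out (5 without Het_1024 or WT_1016). Genotype differences in beta share and exon inclusion moved by less than the spread between mice under every alternative tried, but with 1 mouse left out 5 of 11 exons and 1 beta share turned direction, none of them called: the Nrxn2 beta share (0.38 percentage points) ranged from -0.56 to 1.16, its 30-base exon (-0.42) from -1.36 to 0.37, the Nlgn1 exon (-0.53) from -1.33 to 0.70, the Nlgn2 exon (0.48) from -0.48 to 1.04, and the Nlgn3 exons (0.23 and 0.43) from -1.04 to 1.96 and from -0.14 to 0.84. The causes were not tested. No paired analysis was possible because the animal numbers are shared by no pair of mice and the litters are not given.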

Other observations

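For each of the 9 genes, the tested gene outside the family whose log2 CPM followed it most closely over the 6 mice was, as a description of 6 values that share libraries, Zfp668 for Nrxn2 (r = 0.994), Farp1 for Nrxn3 (0.998), Cwc25 for Nlgn1 (0.992), Grik5 for Nlgn2 (0.998), 2900026A02Rik for Nlgn3 (0.999), Rhbdl1 for Lrrtm1 (0.994), Elovl6 for Lrrtm2 (0.991), B230217C12Rik for Lrrtm3 (0.991) and Mfsd4b4 for Lrrtm4 (0.995). With 6 mice such values arise for many genes: between 14 (Lrrtm3) and 290 (Nrxn3) tested genes had r above 0.95 with a given member. Within the families, Nlgn2 was closest to Nlgn3 (r = 0.974) and Nrxn2 to Nlgn2 (0.965), all 3 among the genes highest in mouse WT_1026, while Lrrtm4 and Lrrtm1 ran opposite to each other (r = -0.870).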
